A study of Mus musculus with 2 samples.

Results

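The Hox rows of a single-cell RNA data set of mouse lymph vessels were followed here across cell types: every row named Hox with a letter from a to d and a number, and every antisense row of the same clusters carrying "os" in its name. This rule gave 21 of the 23521 genes in the tables, 19 protein-coding Hox genes and the antisense transcripts Hoxd3os1 and Hoxb3os. The other 20 of the 39 coding Hox genes in RefSeq's mouse tables have no row in these data, so they could not be analysed here. Cells came from afferent lymphatics labelled scLV-1 and scLV-2 of the submandibular lymph nodes of FVB/N mice carrying a Prox1-GFP reporter, in which green fluorescent protein is driven by the promoter of the lymphatic regulator Prox1. 6 mice aged 12 weeks were pooled into 1 adult library and 6 mice aged 93 weeks into 1 aged library, and no treatment was labelled for either. Cells were sorted by flow cytometry, and the labels used here do not say which gate was set. Since each age is 1 pooled library, no test between ages is possible, and every interval below is a 95% interval for counting error only.

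Hox genes encode homeodomain transcription factors that sit in 4 chromosomal clusters, Hoxa to Hoxd, and are switched on in the embryo in the order in which they lie along each cluster. The combination a cell expresses records its place along the body axis, and many adult cells of the connective tissue and vessel wall keep part of that code. Genes with low numbers belong to the front of the body and genes with high numbers to the rear and the limb ends, and PBX and MEIS proteins bind DNA together with HOX proteins.

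The 250 bases upstream of 4 Hoxd genes are shown because these genes, members of 1 cluster, differed in how far their levels rose from fibroblasts to lymphatic endothelium. They are RefSeq sequences of build GRCm38.p6, chromosome 2, plus strand, at chr2:74691641-74691890 (Hoxd10), chr2:74697513-74697726 (Hoxd9, ended at 214 bases, ahead of its annotated exon), chr2:74704365-74704614 (Hoxd8) and chr2:74721728-74721977 (Hoxd4). Capitals mark the homeodomain core TAAT and the retinoic acid receptor half-site AGGTCA on either strand, and the composite PBX and HOX motif TGATTNAT has no match in them.
Hoxd10: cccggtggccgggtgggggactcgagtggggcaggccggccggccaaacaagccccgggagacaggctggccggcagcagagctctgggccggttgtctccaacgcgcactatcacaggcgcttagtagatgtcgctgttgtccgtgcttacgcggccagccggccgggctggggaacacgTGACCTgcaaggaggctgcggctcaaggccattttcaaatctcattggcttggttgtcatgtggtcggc
Hoxd9: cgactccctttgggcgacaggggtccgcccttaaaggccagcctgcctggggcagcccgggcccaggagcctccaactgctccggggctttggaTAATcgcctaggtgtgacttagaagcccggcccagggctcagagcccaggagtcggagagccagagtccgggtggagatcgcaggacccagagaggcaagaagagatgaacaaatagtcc
Hoxd8: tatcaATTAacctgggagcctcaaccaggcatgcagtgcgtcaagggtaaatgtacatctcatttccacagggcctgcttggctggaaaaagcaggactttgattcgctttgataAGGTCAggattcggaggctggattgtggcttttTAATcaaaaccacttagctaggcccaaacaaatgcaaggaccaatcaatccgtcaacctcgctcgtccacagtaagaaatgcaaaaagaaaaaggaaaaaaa
Hoxd4: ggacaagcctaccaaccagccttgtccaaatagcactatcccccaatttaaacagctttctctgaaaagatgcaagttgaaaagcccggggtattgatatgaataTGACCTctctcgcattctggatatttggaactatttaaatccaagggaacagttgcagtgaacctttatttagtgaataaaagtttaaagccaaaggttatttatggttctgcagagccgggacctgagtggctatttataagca
The 4 windows differ in base composition. Over 250 bases, Hoxd10 and Hoxd9 hold 20 and 13 CG dinucleotides and are 65.6% and 65.2% G or C, whereas Hoxd8 and Hoxd4 hold 6 and 3 and are 44.4% and 40.4%, against a median of 6 CG over 32851 RefSeq windows of that length. The 214 bases printed for Hoxd9 hold 10 of its CG and are 63.6% G or C. The window of Hoxd3, not printed, holds 12 CG. From fibroblasts to lymphatic endothelium Hoxd9 rose 24.7-fold in the adult and 29.2-fold in the aged library, and Hoxd8 4.94-fold and 5.66-fold. Hoxd4 rose 8.68-fold and 16.9-fold, and Hoxd3 9.74-fold and 20.5-fold. A link between CG and these levels was not tested. TAAT is present in the windows of Hoxd9 and Hoxd8, and AGGTCA in those of Hoxd10, Hoxd8 and Hoxd4. Of all windows, 54.9% hold TAAT, 14.0% AGGTCA and 2.82% TGATTNAT. Of the 16 windows matched to 15 members, 10, 6 and 2 hold them. A TGATTNAT match with A at the open position also holds TAAT. A match is a string of letters and does not show binding.

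The adult library held 7308 cells with a median of 12087.5 UMIs (unique molecular identifiers, each counting 1 captured RNA molecule). The aged table held 13969 cells, but 6977 of their barcodes, equal to 95.5% of the adult barcodes, also stood in the adult table with a median of 0.506 times the adult UMIs. These shared cells were left out, which kept 6992 aged cells with a median of 11663.5 UMIs. Values with the shared cells given their aged-table UMIs are in the closing section. Clusters were made without any Hox row and named from marker genes as lymphatic endothelial-like (242 adult and 83 aged cells), blood endothelial-like (659 and 428), smooth muscle-like (368 and 266) and fibroblast-like (5417 and 5721). Cluster 5, led by Mrgprg (622 and 494 cells), was kept apart from the classes because a marker of another class, Krt19, was among its leading genes. The summed level of 13 lymphatic markers in lymphatic endothelial-like cells was 27298 CPM (a gene's UMIs scaled to 1000000 UMIs of the class) in the adult and 22382 in the aged library. Fibroblast markers reached 252 and 495 there, epithelial markers 0 and 116, and 11 of 13 immune markers were at 0 in both libraries. In cluster 5, whose best-matching class was fibroblast, summed fibroblast markers reached 24805 and 28093 CPM. Fibroblast-like cells held 30678 and 38080 CPM of them.

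Among the 21 rows, Hox RNA in these vessels came almost entirely from the Hoxd cluster. The 21 rows summed to 3062 UMIs in the adult and 2272 in the aged library, and the 8 Hoxd rows made up 94.1% and 93.5% of them. The 6 Hoxa rows gave 4.15% and 2.29%, the 4 Hoxb rows 1.14% and 3.48%, and the 3 Hoxc rows 0.621% and 0.748%. Sequencing read the 3′ end of each molecule, so UMIs of different genes were added without a length correction.

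The 7 members with 50 or more UMIs are named with their values. Hoxd8, a mid-cluster gene, had 1216 adult and 1014 aged UMIs. The antisense transcript Hoxd3os1 had 604 and 514, and Hoxd9, which belongs to the posterior group of the cluster, had 558 and 311. The anterior genes Hoxd4 and Hoxd3 had 277 and 184, and 186 and 95. Hoxa5, known from lung and respiratory tract development, had 60 and 19, and the antisense transcript Hoxb3os had 9 and 45. The other 14 members had 3 to 33 UMIs in both libraries together, and none was at 0. Fibroblast-like cells, the largest class, held the most UMIs of each of these but 2. The exceptions were Hoxd10, with 27 of 33 UMIs in lymphatic endothelial-like cells, and Hoxa3, with 13 of 21 in blood endothelial-like cells, both singled out after their values were seen. By the GENCODE M21 annotation, exons of Hoxd3os1 overlap Hoxd3 and Hoxd4 on the other strand, Hoxd3 and Hoxd4 share exons on the same strand, and Hoxb3os overlaps Hoxb2 and Hoxb3. Exons of Hoxd10 overlap Gm28309, and those of Hoxa3 overlap Gm28308, on the same strand. Whether counting used the strand is not given in the sources used here, so the split of reads among these genes is uncertain, while Hoxd8, Hoxd9 and Hoxa5 overlap no other exon.

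Lymphatic endothelial-like cells carried the highest summed Hox level of the 4 classes, followed by blood endothelial-like, smooth muscle-like and fibroblast-like cells. The sum stood at 235 CPM (interval 211 to 261, 340 UMIs) in adult and 205 CPM (165 to 251, 92 UMIs) in aged lymphatic endothelial-like cells. Blood endothelial-like cells held 96.8 CPM (88.4 to 106) and 97.3 CPM (86.1 to 110). Smooth muscle-like cells held 39.3 CPM (32.5 to 47.3) and 39.5 CPM (30.9 to 49.9), and fibroblast-like cells 26.8 CPM (25.6 to 28.0) and 23.0 CPM (21.9 to 24.1). None of these intervals overlapped between classes within a library. In cluster 5 the sum was 19.4 CPM (16.8 to 22.4) and 27.4 CPM (23.8 to 31.5).

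A member was taken as higher or lower in 1 class than in another where its CPM, with nothing added, differed 2-fold or more in each library separately, among members with 50 or more UMIs over the 2 classes and both libraries. By that rule 5 of 6 members were higher in lymphatic endothelial-like than in fibroblast-like cells, against 14.3% of all genes. Hoxd3os1 passed in the aged library on 6 UMIs, at 2.41-fold with an interval (0.878 to 5.29) that includes 1, and within male cells 3 members passed. The same 5, Hoxd9, Hoxd8, Hoxd4, Hoxd3 and Hoxd3os1, were higher in blood endothelial-like than in fibroblast-like cells, against 13.7% of genes. Between smooth muscle-like and fibroblast-like cells 0 of 6 were higher, against 12.3% of genes. In the lower direction the rule counted 1 of 6 members in lymphatic endothelial-like and in smooth muscle-like cells, against 19.1% and 10.5% of genes. It was Hoxa5, with 0 UMIs in both classes, and its fibroblast-like level of 0.766 and 0.211 CPM lies below what 3 counts would give there, so no difference is read from it. In blood endothelial-like cells 0 of 6 were lower, against 18.6%.

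**Figure D1:**
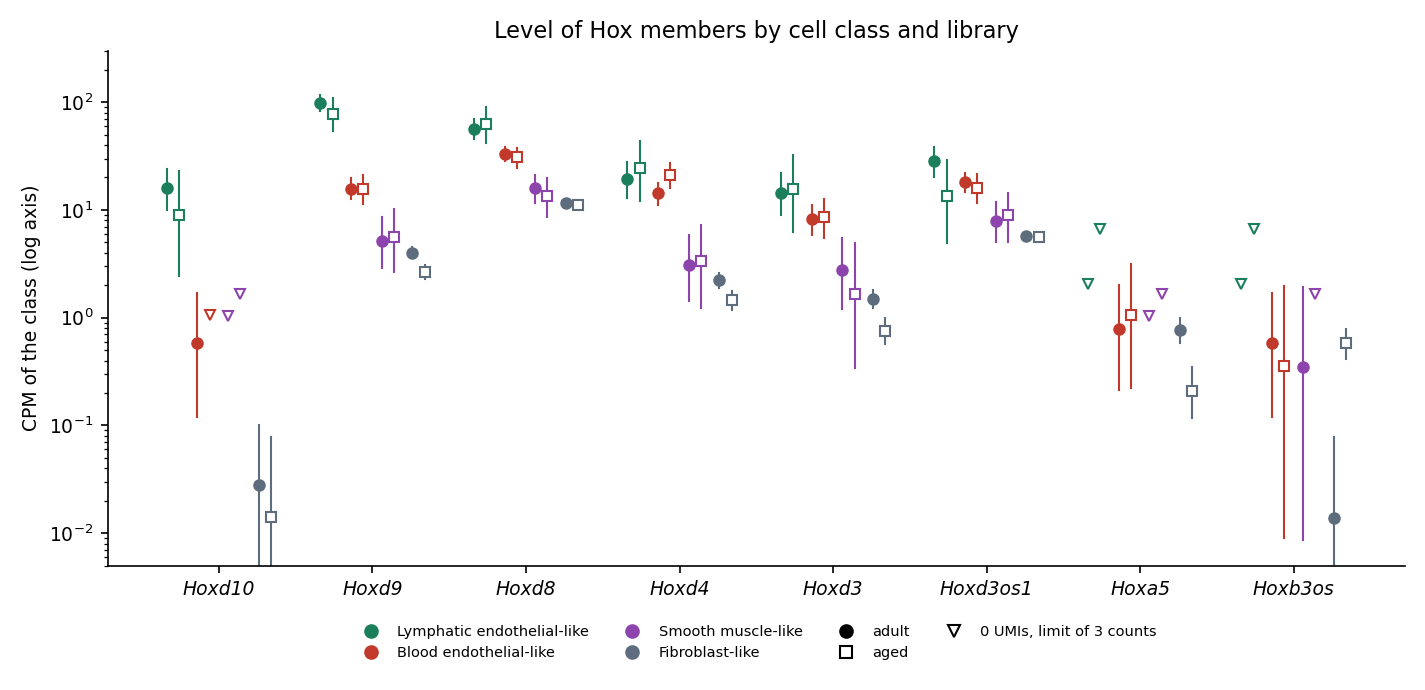
Level of 8 Hox members in CPM (log axis) in the 4 cell classes of each library; filled circles are adult, open squares aged, bars the 95% counting interval (cut at the axis foot where it goes lower), and open triangles mark 0 UMIs at the level that 3 counts would give. Hoxd9 stands at 98.8 and 78.0 CPM in lymphatic endothelial-like cells and below 16 CPM in every other class.

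Hoxd9 showed the widest spread between classes of the named Hoxd members. It reached 98.8 CPM (83.3 to 116, 143 UMIs) in adult and 78.0 CPM (54.3 to 108, 35 UMIs) in aged lymphatic endothelial-like cells. Blood endothelial-like cells held 15.8 and 15.7 CPM, smooth muscle-like cells 5.18 and 5.57 CPM, and fibroblast-like cells 3.998 and 2.67 CPM. The smooth muscle-like intervals (2.90 to 8.54 and 2.67 to 10.2) overlapped the fibroblast-like ones (3.55 to 4.49 and 2.30 to 3.08), and the 2 endothelial classes lay above both. Lymphatic endothelial-like over fibroblast-like cells, Hoxd9 was 24.7-fold (20.1 to 30.3) higher in the adult and 29.2-fold (19.7 to 42.0) in the aged library. Over blood endothelial-like cells it was 6.25-fold (4.73 to 8.32) and 4.97-fold (3.09 to 7.93) higher. It was the only 1 of 5 members higher in lymphatic than in blood endothelial-like cells, against 5.68% of genes, and 0 of 5 were lower, against 6.86%.

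Hoxd10, the next gene towards the posterior end, was almost confined to the same cells at low counts. It had 23 UMIs (15.9 CPM, 10.1 to 23.8) in adult and 4 UMIs (8.91 CPM, 2.43 to 22.8) in aged lymphatic endothelial-like cells. Blood endothelial-like cells held 3 and 0 UMIs, fibroblast-like cells 2 and 1, and smooth muscle-like cells 0 and 0, where a limit of 3 counts corresponds to 1.04 and 1.67 CPM. It stayed under the 50 UMIs required for a named member, so no fold is given.

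Hoxd8 was the leading member outside the lymphatic endothelium and had a smaller spread. Its level was 56.7 CPM (82 UMIs) and 62.4 CPM (28 UMIs) in lymphatic endothelial-like, 33.2 and 30.7 CPM in blood endothelial-like, 15.9 and 13.4 CPM in smooth muscle-like, and 11.5 and 11.0 CPM in fibroblast-like cells of the adult and aged library. The lymphatic to fibroblast ratio of Hoxd8 was 4.94 (3.89 to 6.20) and 5.66 (3.74 to 8.24), below the interval of Hoxd9 in both libraries. Against blood endothelial-like cells the ratio was 1.71 (1.30 to 2.24) and 2.03 (1.28 to 3.15).

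The anterior members Hoxd4 and Hoxd3 followed the endothelial classes together. Hoxd4 held 19.3 and 24.5 CPM in lymphatic endothelial-like, 14.2 and 21.0 CPM in blood endothelial-like and 2.23 and 1.45 CPM in fibroblast-like cells. Hoxd3 held 14.5 and 15.6, 8.19 and 8.56, and 1.49 and 0.759 CPM in the same classes. For both genes the lymphatic and blood endothelial-like intervals overlapped in each library. Blood endothelial-like cells exceeded fibroblast-like cells 6.39-fold (4.78 to 8.48) and 14.5-fold (10.4 to 20.2) for Hoxd4, and 5.50-fold (3.75 to 7.92) and 11.3-fold (6.66 to 18.5) for Hoxd3. Hoxd3os1, transcribed against them, held 28.3 CPM (41 UMIs) and 13.4 CPM (6 UMIs) in lymphatic endothelial-like and 18.1 and 16.0 CPM in blood endothelial-like cells. In fibroblast-like cells it held 5.70 and 5.55 CPM.

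The mix of Hox RNA also differed between classes. Hoxd9 made up 42.1% (36.8 to 47.5) of the Hox UMIs of adult and 38.04% (28.1 to 48.8) of those of aged lymphatic endothelial-like cells. It made up 16.3% and 16.1% in blood endothelial-like, 13.2% and 14.1% in smooth muscle-like, and 14.9% (13.3 to 16.6) and 11.6% (10.1 to 13.3) in fibroblast-like cells. Of the UMIs of Hoxd9 and Hoxd8 together, Hoxd9 had 63.6% (56.9 to 69.8) and 55.6% (42.5 to 68.1) in lymphatic endothelial-like, 32.3% and 33.8% in blood endothelial-like, and 25.8% and 19.5% in fibroblast-like cells. This share needs no scaling to depth, and the lymphatic values were the highest of the 4 classes in each library.

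**Figure D2:**
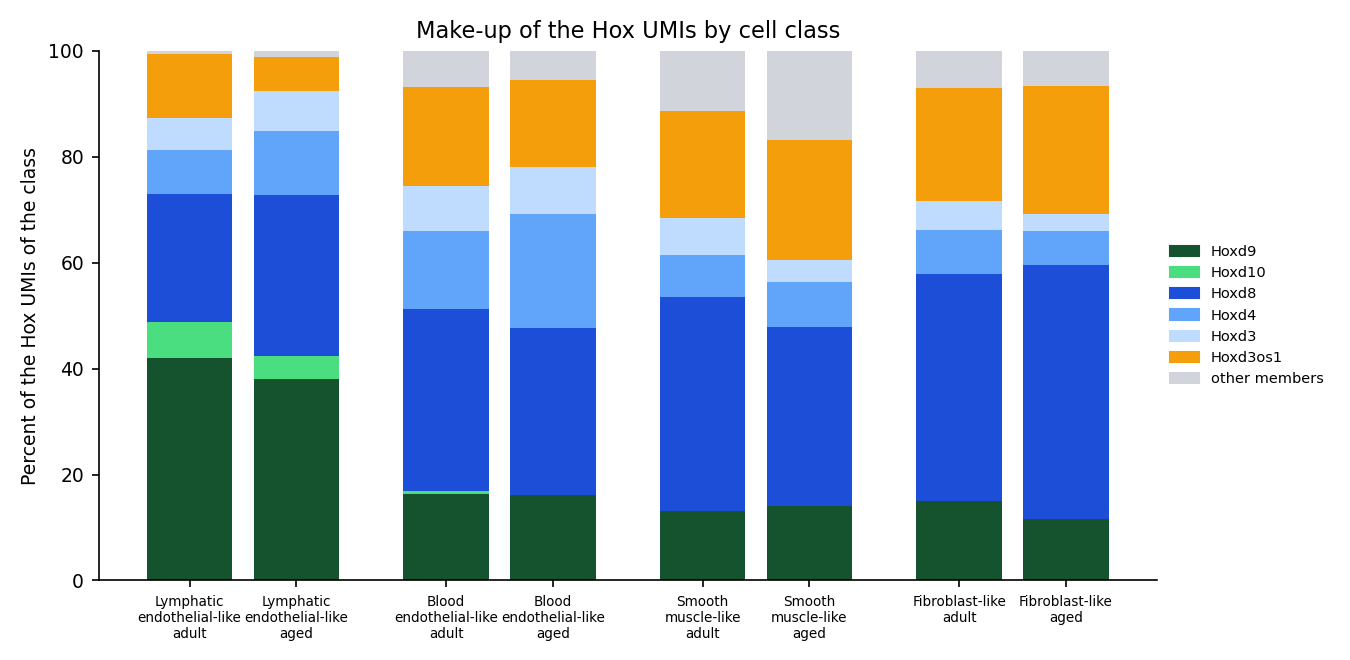
Percent of each class's Hox UMIs given by each member, for the 4 cell classes in the adult and aged library. Hoxd9 fills 42.1% and 38.04% of the lymphatic endothelial-like bars and at most 16.3% of any other bar.

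The pattern was also read as shares of cells, with every cell thinned to 5324 UMIs and shallower cells left out. In adult lymphatic endothelial-like cells 66.2% (57.8 to 73.8; 144 cells kept, 98 left out) had a Hox UMI, and in aged ones 66.3% (49.6 to 80.4; 40 kept, 43 left out). The share was 36.4% and 34.9% in blood endothelial-like, 16.5% and 19.5% in smooth muscle-like, and 13.1% and 11.6% in fibroblast-like cells. This order depended on which UMIs the adult cells were given. With the aged-table UMIs for the shared barcodes, 37.6% (10.7 to 71.8; 10 cells kept, 232 left out) of adult lymphatic and 47.1% (37.0 to 57.4; 99 kept, 560 left out) of adult blood endothelial-like cells had a Hox UMI, which turns their order with overlapping intervals. Without thinning, fibroblast-like cells, the deepest of the 4 classes, stood at 25.3% and 22.1%. Unthinned smooth muscle-like cells stood at 23.4% and 20.7%, which turns the order of these classes, with overlapping intervals. Hoxd9 was found in 39.8% (31.7 to 48.2) and 41.1% (25.8 to 57.7) of the thinned lymphatic endothelial-like cells, in 7.06% and 6.86% of blood endothelial-like and in 2.30% and 1.60% of fibroblast-like cells. Hoxd8 was found in 24.996% and 31.4%, 15.6% and 13.7%, and 6.12% and 6.01% of the same classes. The fibroblast gene Pdgfra, measured in the same way, was in 0.709% and 3.91% of lymphatic endothelial-like against 78.2% and 76.9% of fibroblast-like cells, and the very abundant Dcn was in 43.3% and 42.0% against 99.9% of both.

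**Figure D3:**
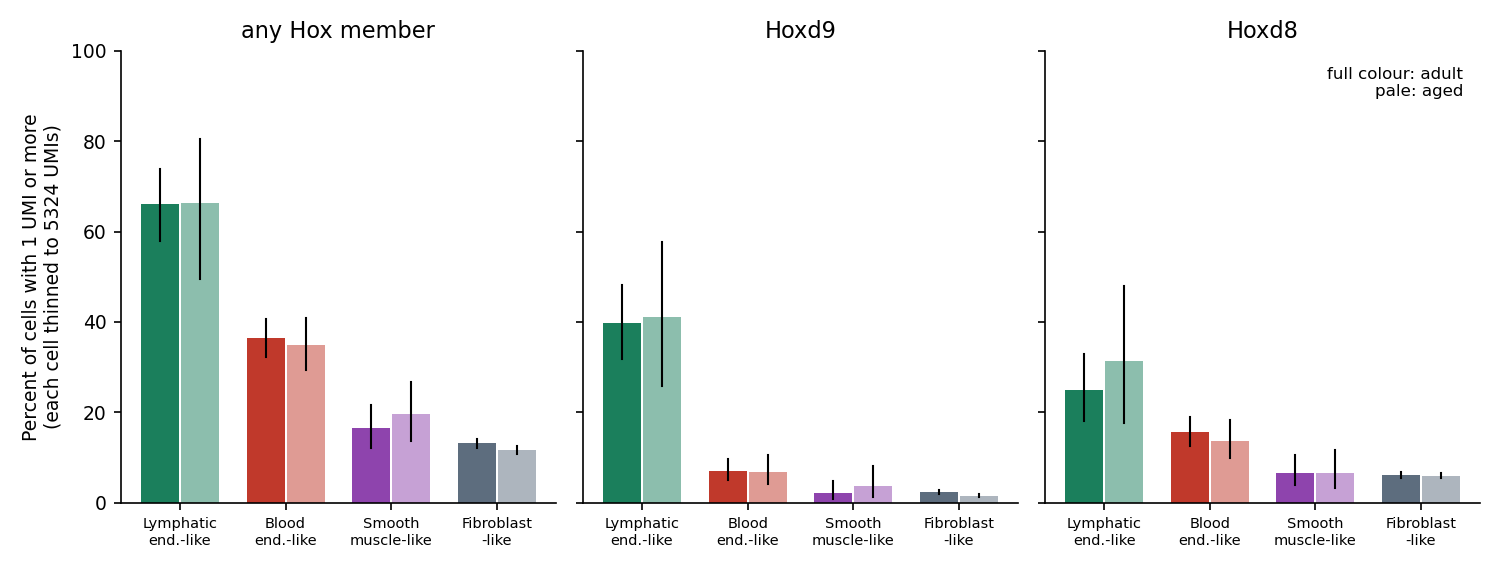
Percent of cells with at least 1 UMI of any Hox member, of Hoxd9 and of Hoxd8 after each cell was thinned to 5324 UMIs (the expected share), by cell class, with 95% exact binomial intervals. With the adult table's UMIs, as plotted, lymphatic endothelial-like cells stand highest in each panel, at 66.2% and 66.3% for any member.

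Droplet data carry free RNA from broken cells, so the Hoxd levels were set beside genes that each class should lack. In lymphatic endothelial-like cells 7 abundant fibroblast genes stood at a median of 0.649% (adult) and 0.866% (aged) of their fibroblast level, while the 5 named Hoxd members stood above their fibroblast level. In fibroblast-like cells, 3 lymphatic markers, Prox1, Flt4 and Mmrn1, stood at a median of 0.0571% and 0.0468% of their lymphatic level. Hoxd9 stood at 4.05% and 3.43% there, and Hoxd8 at 20.3% and 17.7%. In blood endothelial-like cells the gap was narrower. The same 3 lymphatic markers stood at a median of 8.18% and 7.86% of their lymphatic level, and at most at 15.6% and 14.3%. Hoxd9 stood at 16.0% and 20.1% and Hoxd8 at 58.5% and 49.2% in these cells. The part of lymphatic RNA in the Hox level of blood endothelial-like cells was not tested. Smooth muscle-like cells held the same 7 fibroblast genes at a median of 24.9% and 21.9%, with summed fibroblast markers of 9307 and 8146 CPM, and the part of these cells' Hox level that this fibroblast RNA carries was not tested.

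Both lymphatic endothelial-like clusters held more Hoxd9 than the blood endothelial-like clusters 10 and 15 in the adult library. Cluster 17, led by Spp1 and Coch, held 18695 and 15705 CPM of Prox1 and 88.3 (70.0 to 110) and 80.6 CPM (54.3 to 115) of Hoxd9. Cluster 20, led by Ccl21a and Reln, held 7001 and 4984 CPM of Prox1 and 116 (89.4 to 149) and 65.4 CPM (21.2 to 153, 5 UMIs) of Hoxd9. The Hoxd9 intervals of the 2 lymphatic clusters overlapped in each library. The blood endothelial-like cluster 10, led by Vwf and Selp, held 3459 and 2795 CPM of Prox1, and its Hoxd9 level was 16.1 (12.0 to 21.1) and 15.1 CPM (10.2 to 21.6). Cluster 15, led by Rbp7, held 179 and 21.3 CPM of Prox1 and 17.3 and 14.2 CPM of Hoxd9, with intervals (11.2 to 25.5 and 6.12 to 28.0) that overlapped those of cluster 10. Cluster 21, led by Gja5 and Sema3g, gave 8.84 and 23.4 CPM of Hoxd9 from 4 and 6 UMIs.

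Fibroblast-like cells were not uniform in their Hox level. Of 13 clusters, 11 had 50 or more cells in each library, and their summed Hox levels kept a similar order in the 2 libraries (Pearson r 0.94 and Spearman rho 0.9 across the 11 clusters, given as a description). Cluster 14, led by Acsbg1 and Fmod, was the highest at 74.6 CPM (64.1 to 86.3) in the adult and 81.6 CPM (59.03 to 109.9) in the aged library. Cluster 9, led by Greb1 and Rxfp1, held 61.2 and 44.3 CPM, cluster 7, led by Mast1, 48.8 and 47.3 CPM, and cluster 2, led by Cpz and Timp1, 44.1 and 31.2 CPM. The other 7 held 9.55 to 26.4 CPM in the adult and 14.0 to 21.6 CPM in the aged library. The lowest was cluster 3, led by Gm56730, Rtl4 and Wt1, with 9.55 CPM (4.37 to 18.1; 62 cells) and 14.0 CPM (12.3 to 15.8; 1245 cells). The highest cluster exceeded the lowest 7.81-fold (4.02 to 17.4) in the adult and 5.83-fold (4.12 to 8.07) in the aged library. Cells called female were 97.3% and 95.7% of the cells with a sex call in cluster 9 and 73.7% and 55.8% in cluster 14. They were 69.5% and 45.3% in cluster 7, 19.1% and 13.5% in cluster 2, and 33.3% and 15.2% in cluster 3. The part of sex in these Hox levels was not tested.

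**Figure D4:**
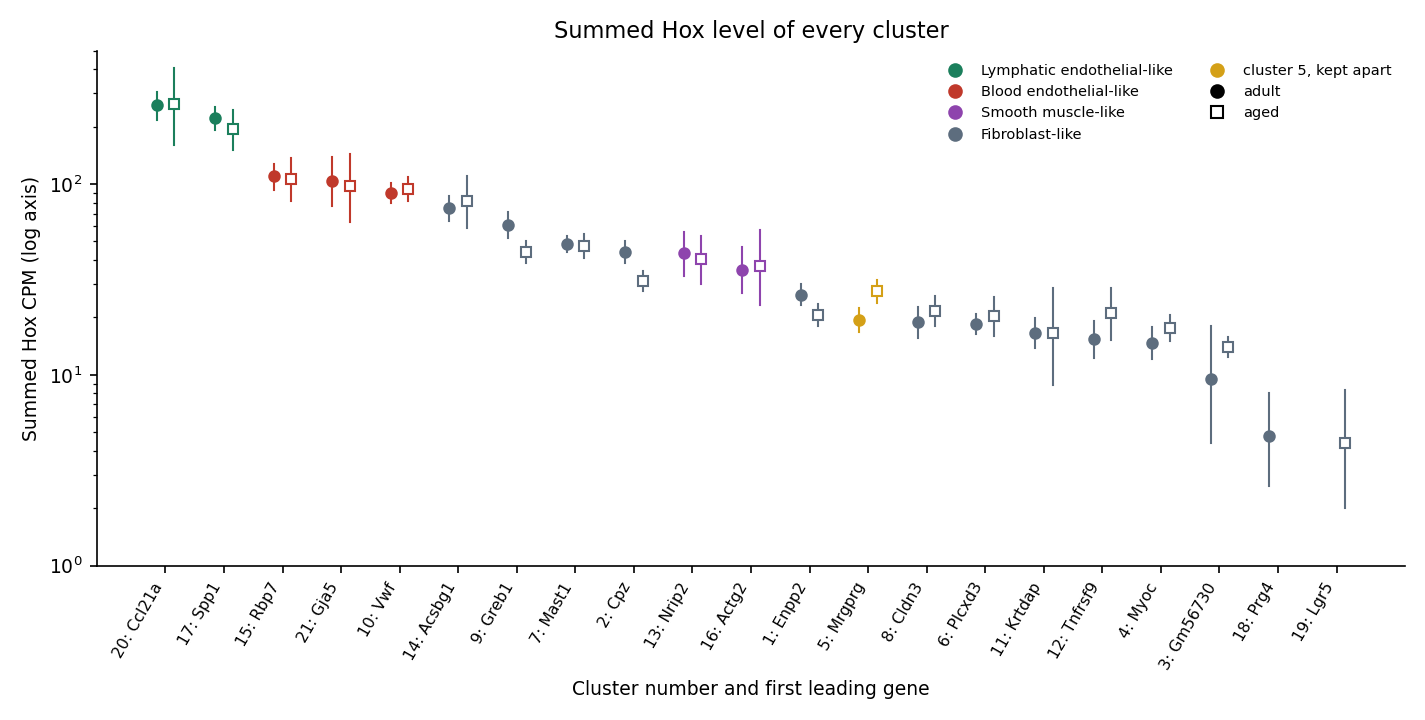
Summed Hox level in CPM (log axis) of the 21 clusters, each named by its number and first leading gene and coloured by class; filled circles are adult, open squares aged, bars the 95% counting interval, and values from under 19 cells are left out. The lymphatic clusters 20 and 17 are highest, and clusters 14, 9, 7 and 2 stand highest among the fibroblast-like ones.

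Single members traced the same fibroblast-like clusters. Hoxd8 held 34.4 (27.4 to 42.6) and 36.04 CPM (21.7 to 56.3) in cluster 14 and 31.0 (24.6 to 38.5) and 23.9 CPM (19.8 to 28.5) in cluster 9, against 6.37 (2.34 to 13.9) and 6.46 CPM (5.36 to 7.72) in cluster 3. Hoxd4 held 9.53 and 9.48 CPM and Hoxd3os1 19.1 and 13.3 CPM in cluster 14, the highest of the 11 clusters for each gene in each library. Hoxd9 peaked at 11.0 CPM (7.34 to 15.7) in cluster 9 of the adult and at 17.1 CPM (7.81 to 32.4, 9 UMIs) in cluster 14 of the aged library, and in cluster 3 it had 0 UMIs in the adult and 0.694 CPM (0.370 to 1.19) in the aged library. The Hoxd8 level of cluster 14 lay within the intervals (28.4 to 38.5 and 24.5 to 37.9) of blood endothelial-like cells, at 33.2 and 30.7 CPM.

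2 fibroblast-like clusters found almost wholly in 1 library had the least Hox RNA. Cluster 18, led by Prg4, Oxtr and the homeobox genes Dlx5 and Dlx6, had 197 adult and 7 aged cells and held 4.78 CPM (2.61 to 8.02) in the adult library, with 0 UMIs of Hoxd9. Cluster 19, led by Lgr5 and Stk32a, had 3 adult and 158 aged cells and held 4.37 CPM (1.999 to 8.30) in the aged library, also with 0 UMIs of Hoxd9. Cluster and library cannot be told apart for these cells.

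Hoxa5 and Hoxb3os were spread differently from the Hoxd genes. Hoxa5 had 0 UMIs in lymphatic endothelial-like and smooth muscle-like cells. A limit of 3 counts corresponds to 2.07 and 6.68 CPM in the first and 1.04 and 1.67 CPM in the second, so a level like that of adult fibroblast-like cells (0.766 CPM, 55 UMIs) was not detectable in either. Of those 55 UMIs, 22 came from cluster 6, led by Plcxd3, at 1.56 CPM, and 8 from cluster 8, led by Cldn3 and Pi16. Hoxb3os had 1 UMI in adult and 41 in aged fibroblast-like cells, and 23 of the 41 came from cluster 3, which had 62 adult and 1245 aged cells. In that cluster its aged level was 1.23 CPM. The 1 adult UMI came from cluster 6. In clusters filled in both libraries it had 0 adult and 6 aged UMIs in cluster 8 (545 and 540 cells) and 0 and 4 in cluster 12 (352 and 149). It had 0 and 3 in cluster 7 (703 and 395) and 0 and 3 in cluster 2 (475 and 910). Clusters 1 and 11 each held 0 and 1, cluster 6 held 1 and 0, and clusters 4, 9 and 14 held 0 and 0. Cluster 5, kept apart from the fibroblast-like class, held 4 adult and 3 aged UMIs (622 and 494 cells), at 0.416 and 0.409 CPM. Fibroblast-like cells called female held 1 and 5 UMIs of Hoxb3os, and those called male 0 and 33.

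Hoxd8 and Hoxd9 were found together in fibroblast-like cells. Among adult fibroblast-like cells thinned to 5324 UMIs, Hoxd9 was expected in 5.51% (3.25 to 8.66) of cells with a Hoxd8 UMI and in 2.09% of cells without. In aged cells the shares were 3.49% (1.76 to 6.13) and 1.48%. Read the other way, Hoxd8 was in 14.7% (8.83 to 22.5) and 13.1% (6.77 to 22.2) of cells with a Hoxd9 UMI, and in 5.92% and 5.90% of cells without. No fibroblast-like cell kept for this comparison held both Hoxd9 and Hoxa5, and the upper limit of the interval for the share of adult cells with a Hoxd9 UMI that also held Hoxa5 was 3.11%. Among cells without a Hoxd9 UMI, Hoxa5 was in only 0.359% of adult and 0.115% of aged ones. The adult share lies within that interval. Hoxa5 was too rare for its absence to be read as exclusion. These shares pool clusters whose Hox levels differ, and co-detection within clusters was not tested.

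Between ages, no named member passed a 1.5-fold difference of log2(CPM + 1) in any of the 4 classes, among members with 50 or more UMIs in that class over both libraries. In lymphatic endothelial-like cells 0 of 2 did, against 8.43% of genes higher and 9.53% lower in the aged library. The counts were 0 of 5 in blood endothelial-like (5.01% and 7.11%), 0 of 1 in smooth muscle-like (3.95% and 11.0%) and 0 of 6 in fibroblast-like cells (2.09% and 5.7%). Under that minimum fell Hoxb3os in fibroblast-like cells, with 1 and 41 UMIs and a log2(CPM + 1) difference of 0.64, and Hoxd3os1 in lymphatic endothelial-like cells, at 28.3 and 13.4 CPM from 41 and 6 UMIs. For the latter the interval of the plain log2 ratio was -2.61 to 0.16. Every age ratio printed with an interval is of CPM with nothing added. The summed Hox level differed on the log2 scale, aged over adult, by -0.20 (-0.55 to 0.14) in lymphatic endothelial-like, 0.01 (-0.21 to 0.22) in blood endothelial-like, 0.01 (-0.44 to 0.45) in smooth muscle-like and -0.22 (-0.32 to -0.13) in fibroblast-like cells. In cluster 5, best matched to fibroblasts but kept apart, the difference was 0.50 (0.20 to 0.79), opposite in sign to that of the fibroblast-like class.

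In lymphatic endothelial-like cells Hoxd9 and Hoxd8 had log2 ratios of -0.34 (-0.92 to 0.20) and 0.14 (-0.54 to 0.77), of which the first interval includes a 1.5-fold lower level and the second a 1.5-fold higher one. In blood endothelial-like cells Hoxd4 went from 14.2 to 21.0 CPM, a log2 ratio of 0.56 (0.04 to 1.08), while Hoxd9 stood at 15.8 and 15.7 CPM. Cells called female gave 10.9 and 24.2 CPM for Hoxd4, a log2 ratio of 1.15 (0.33 to 1.98), and cells called male 19.2 and 18.1 CPM, a log2 ratio of -0.09 (-0.95 to 0.73). In cluster 5, 1 of 3 members, Hoxd3os1, was higher in the aged library, at 7.09 against 3.95 CPM (log2 ratio 0.84, 0.21 to 1.49), against 3.92% of genes higher and 7.02% lower.

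In fibroblast-like cells none of the 6 members passed the 1.5-fold line. All 6 had lower values in the aged library, and for 4 the interval of the plain log2 ratio lay below 0. Hoxd8 stood at 11.5 and 11.0 CPM and Hoxd3os1 at 5.70 and 5.55 CPM. Hoxd9 stood at 3.998 and 2.67 CPM, Hoxd4 at 2.23 and 1.45, Hoxd3 at 1.49 and 0.759, and Hoxa5 at 0.766 and 0.211. With 1 CPM added, their log2 ratios were -0.45, -0.40, -0.50 and -0.54. These values understate low genes, since the plain log2 ratios of CPM were -0.58 (-0.85 to -0.31), -0.62 (-0.99 to -0.26), -0.97 (-1.47 to -0.49) and -1.86 (-2.79 to -1.02). With 0.1 CPM added, 3 of 6 passed the 1.5-fold line. The median of the 6 was -0.42, against -0.08 over all genes tested in these cells. Aged fibroblast-like cells were 36.4% female among cells with a sex call, against 50.6% in the adult library. Within female cells Hoxd9 stood at 3.95 and 3.42 CPM, a log2 ratio of -0.21 (-0.64 to 0.21), and within male cells at 3.74 and 2.04 CPM, a log2 ratio of -0.88 (-1.30 to -0.46). With the 11 fibroblast-like clusters filled in both libraries weighted equally, clusters 18 and 19 left out, the summed level differed by -0.052. Of the 11 clusters, 7 were higher and 4 lower in the aged library. The share of each cluster differed between the libraries, and its part in the single members was not tested.

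**Figure D5:**
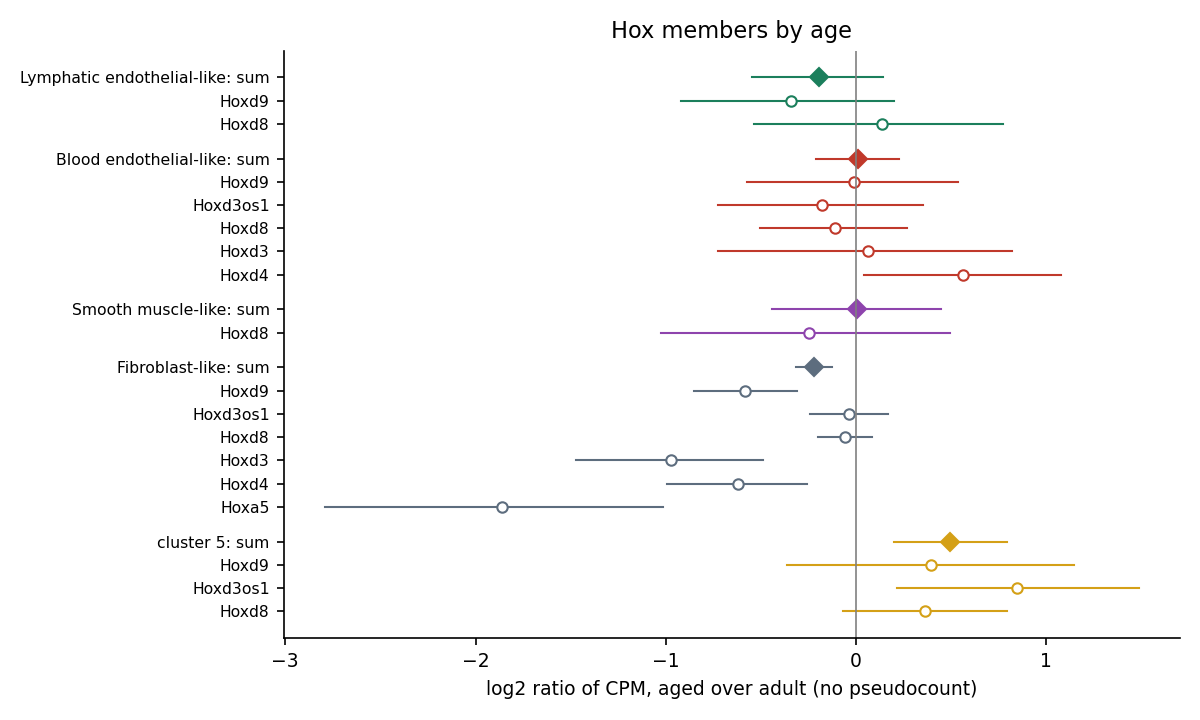
Log2 ratio of CPM, aged over adult, for the summed Hox level (diamonds) and each member with 50 or more UMIs (open circles) by cell class, without a pseudocount, with 95% counting intervals. Fibroblast-like Hoxa5 stands lowest at -1.86, and the lymphatic and blood endothelial-like sums have intervals that include 0.

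Partners and regulators of the Hox genes were read with the same rules. Of 9 HOX cofactors, 0 were higher and 3 lower in lymphatic endothelial-like than in fibroblast-like cells, against 14.3% and 19.1% of genes. Of the 6 tested between lymphatic and blood endothelial-like cells 1, Meis2, was higher and 1, Pknox2, lower, against 5.68% and 6.86%. Meis2, which binds DNA with HOX and PBX proteins, held 171 and 183 CPM in lymphatic but 6.63 and 3.57 CPM in blood endothelial-like cells. Meis1 had 9 and 0 UMIs in the lymphatic class. Of 20 chromatin regulators of the Hox clusters, 2 were higher and 0 lower in lymphatic endothelial-like than in fibroblast-like cells, a share of higher genes below that of all genes (14.3%). They were the Polycomb genes Bmi1, at 42.8 and 37.9 against 11.8 and 8.63 CPM, and Phc2, at 91.9 and 102 against 25.3 and 22.2 CPM. Of 15 retinoic acid pathway genes tested, 0 were higher and 8 lower, against 14.3% and 19.1% of genes. Of 4 upstream factors 0 passed in either direction, and of 10 genes flanking the Hox clusters 1 was higher and 2 were lower.

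By age in fibroblast-like cells, 0 of 9 cofactors passed 1.5-fold, with a median log2 ratio of -0.15 against -0.08 over all genes. Of all genes 2.09% were higher and 5.7% lower in the aged library. Of 20 chromatin regulators 2 were lower in the aged library, the Polycomb genes Cbx7 at 13.9 and 8.28 CPM and Cbx8 at 3.32 and 1.81 CPM. Of 15 retinoic acid pathway genes 2 were higher and 2 lower. Of the 10 flanking genes 0 passed.

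Over the 11 fibroblast-like clusters, the genes whose log2(CPM + 1) most resembled the summed Hox level were ranked among 4775 genes. Among the 10 most alike were Mid1ip1, Arhgdib, Tmem204, H2-T23, Spry1, Dbndd2, Dipk1b, Ech1 and Dtx3. Mid1ip1 had r of 0.94 over the adult and 0.98 over the aged clusters, and Arhgdib had 0.94 over both. The 5 most opposed were the hyaluronan synthase gene Has2 (-0.96 and -0.97), Ugdh, Pdpn, Gprc5b and Ptprj. These are descriptions over clusters that share 1 library per age and differ in depth.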

How the data were processed

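Single-cell RNA was measured by droplet 3′ sequencing in 1 pooled adult and 1 pooled aged library. Seurat 5.0.3 made the tables, per the submitters' processing notes, which name the builds GRCm39 and mm10 without a role. Aligner, counting and cell filters: not given in the sources used here. Deposited values are the natural log of 1 plus UMIs scaled to a fixed total per cell, as the values show, and 100% of values gave whole UMIs within 0.01. The tables hold 90875406 and 128940414 UMIs. Aged rows carry no names and were named by adult row order. In shared cells, levels of rows at the same position had r of 0.999, against 0.0600 with rows shifted by 1, and 6 of 6 Hox rows tested matched best at their own position.

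Cells were clustered without Hox rows (2000 variable genes, 30 components, 15 neighbours, resolution 1) with Python 3.11.15, numpy 2.4.6, pandas 2.3.3, scipy 1.17.1, scikit-learn 1.9.0 and igraph 0.11.9. UMIs were summed per class and library. Intervals are exact Poisson, binomial (Clopper-Pearson) or conditional binomial. No doublet caller was run. Thinned shares are exact expectations. The calculation of age ratios was tested on simulated data. Members with 50 or more UMIs are named, and Hoxd10 and Hoxa3 were added after their values were seen. Alternatives covered the count minimum, fold, pseudocount, depth, clustering, sex calls and the shared cells. The members and lists were chosen with earlier results of these data known. Some genes of these lists are not reported here.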

Additional observations from a re-analysis of the deposited data

How the results depend on the processing

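No paired analysis was possible because each age is 1 library. Of the values of the main comparisons under alternatives, 231 stayed within the limits set for them, 34 moved and none of the called differences changed sign. A minimum of 20 UMIs named 13 members. By sex, 3 members were higher in lymphatic endothelial-like than in fibroblast-like male cells, 0 were lower there or in the smooth muscle-like class in either sex, and 1 was higher in smooth muscle-like male cells. A 1.5-fold line gave 1 member higher in smooth muscle-like than in fibroblast-like cells and 3 higher in lymphatic than in blood endothelial-like cells. Shares with a Hox UMI depended on depth. Thinned to 8232 UMIs they were 76.4% in adult lymphatic, 50.8% and 45.9% in adult and aged blood endothelial-like, and 17.6% and 15.3% in fibroblast-like cells. Unthinned they were 46.4% and 42.3% in blood endothelial-like, 23.4% and 20.7% in smooth muscle-like, and 25.3% and 22.1% in fibroblast-like cells. With aged-table UMIs for the shared cells, adult shares were 37.6% in lymphatic (10 cells kept, interval 10.7 to 71.8), 47.1% in blood endothelial-like and 11.6% in fibroblast-like cells, which turns the order of the first 2. Female and male fibroblast-like cells gave 14.3% and 10.9% in the adult and 13.1% and 10.2% in the aged library. By age, 2 members were lower in aged lymphatic endothelial-like and 1 higher in aged fibroblast-like cells at 20 UMIs, and 1 was higher in female blood endothelial-like cells. In fibroblast-like cells 2 were lower with aged-table UMIs, 1 in male cells and 3 with a pseudocount of 0.1 CPM. The summed fibroblast-like log2 ratio was -0.052 with the clusters filled in both libraries weighted equally, -0.36 without Hoxd8, and -0.15 with cluster 5 added, an alternative chosen after seeing the data. Depth limits the aged lymphatic class, with 92 Hox UMIs in 83 cells, and the aged smooth muscle-like class, with 71 Hox UMIs. The cause of these shifts was not tested.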
